A study of Mus musculus with 8 samples.

Results

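Genes of the p53 response and of apoptosis were followed in mandibular arches taken from mouse embryos at embryonic day 11.5. They were a fixed list of 36 genes, made of p53 and its regulators, targets of p53, death receptors, the Bcl2 family, and the caspases with their activators and inhibitors. A gene was represented by the brightest of the probe sets annotated to it alone, by the mean over all arrays, and 34 of the 36 were measured in this way among 18194 genes in all. Trp53, which encodes p53 itself, and the pore-forming gene Bax were not analysed here.

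The study compared 4 Alk5 fl/fl control arches with 4 Wnt1-Cre;Alk5 fl/fl mutant arches, all of the C57BL/6J strain and of undetermined sex. Alk5, now called Tgfbr1, is a type I TGF-beta receptor. Both groups carry the floxed Alk5 alleles, and the Cre driver acts in the neural crest lineage, so that mesoderm, epithelium, endothelium and blood cells of the mutant arch keep the receptor gene. The control labels name no Cre, so effects of the driver and of the deletion cannot be told apart. The labels do not say whether each array came from a separate embryo or litter, so p-values measure only the spread between arrays, which may be partly technical.

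p53 is a transcription factor that is held at a low level by Mdm2 and Mdm4 and is stabilised by DNA damage and other stress, after which it switches on genes of growth arrest, repair and cell death. The mitochondrial path to apoptosis is set by the Bcl2 family: BH3-only proteins carry the death signal, anti-apoptotic members such as Bcl2 and Mcl1 bind and neutralise them, and Bax and Bak1 open the outer mitochondrial membrane, after which Apaf1 assembles the apoptosome and activates Casp9. Cranial neural crest cells are known to be prone to p53-dependent apoptosis, and TGF-beta can promote or restrain death according to the cell type.

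In the mutant arches 2 BH3-only genes rose and 1 p53 target of growth arrest and stress fell, while the remaining 31 measured genes did not pass the test (limma, Benjamini-Hochberg adjusted p under 0.05 over all genes). Bmf was 1.60-fold higher and Bbc3, which encodes Puma and is itself a p53 target, 1.37-fold higher, and Plk2 was 1.59-fold lower. These 3 of 34 genes, or 2 higher and 1 lower, stand beside 2.14% of all genes called in either direction, 0.835% called higher and 1.31% called lower. Another BH3-only gene, Bcl2l11 (Bim), was higher and the anti-apoptotic Bcl2 lower on every mutant array than on every control array, but neither passed the threshold. The other p53 targets measured did not pass either. Mdm2, Sesn2, Zmat3, Aen, Gadd45a, Trp53inp1 and Btg2 had log2 fold changes between -0.09 and 0.02. Ccng1 (-0.21), Sesn1 (-0.20), Pmaip1 (-0.18) and Phlda3 (-0.17) lay below this range and Eda2r (0.21) above it. Several of these values moved when mutant replicate 3 was left out. Without it Ccng1 was at -0.10, Sesn1 at -0.11, Phlda3 at -0.15, Pmaip1 at 0.09 and Eda2r at 0.27. Aen (0.13), Zmat3 (0.12), Gadd45a (0.09) and Btg2 (0.08) then lay above the range given. On the same mutant arrays 9 of 10 macrophage markers also rose, and their summed level on the linear scale was 3464 to 4714 against 1668 to 1891 in controls.

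Each value below is a log2 expression value of 1 probe set as deposited, and each change is a log2 fold change, the mutant mean minus the control mean. Values of different member genes were not compared as amounts. Probe sets of 1 gene were ordered by brightness, marker values were summed or averaged, and some values were set beside array quartiles or medians. Array medians were 6.28 to 6.42. Mutant replicate 3 differed from the rest, with an upper quartile of 8.36 against 8.62 to 8.71 on the other arrays. It was the lowest of the 8 arrays for 22 of the 34 genes (64.7%) and for 41.8% of all genes. The member counts and many of the changes are therefore also given without it, and the remaining changes only with it. Precision is limited by the number of arrays. Tgfbr1 (probe set 1420895_at) read 12.82, 12.71, 12.90 and 12.73 on controls 1 to 4 and 12.97, 12.99, 12.98 and 12.99 on mutants 1 to 4, a change of 0.19 (limma adjusted p = 0.232). Where this probe set lies relative to the floxed part of the gene is not known here, so it does not check the deletion. Markers of arch mesenchyme (Dlx2, Dlx5, Hand1, Hand2, Prrx1, Twist1, Barx1, Msx1) averaged 10.88 to 11.08 per array, above the upper quartile of every array. In whole tissue, fewer cells of a type and less RNA per cell cannot be told apart.

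**Figure D1:**
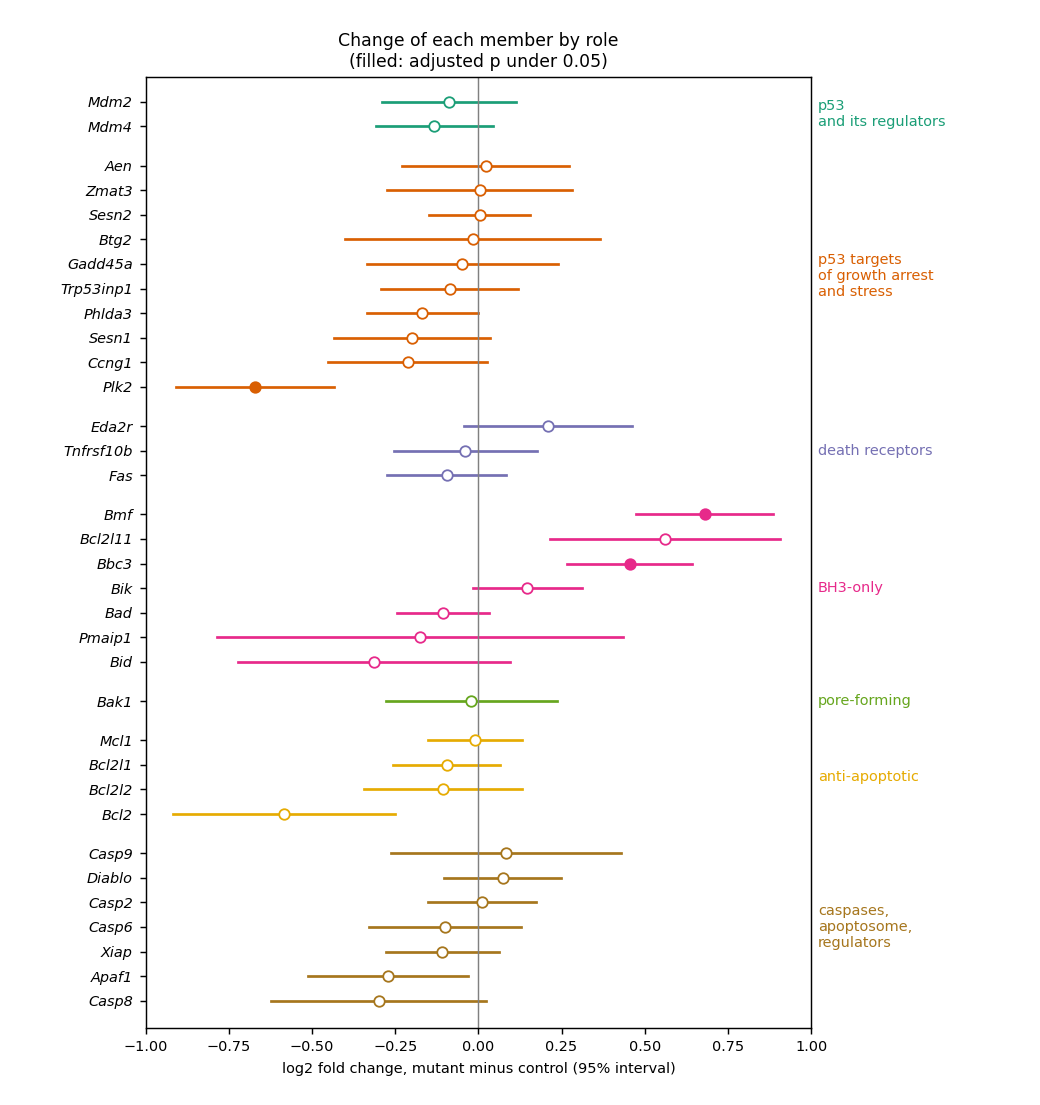
Log2 fold change (mutant minus control, x axis) of each of the 34 measured genes, grouped by role, with its 95% interval from the limma fit; filled points passed an adjusted p under 0.05. Bmf (0.68) and Bbc3 (0.45) lie to the right and Plk2 (-0.67) to the left, Bcl2l11 (0.56) and Bcl2 (-0.58) are open points whose intervals exclude 0, and most other intervals span 0.

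The regulators of p53 did not pass. Mdm2, the ubiquitin ligase that degrades p53 and is itself induced by it, read 10.06, 10.10, 10.12 and 10.10 on controls 1 to 4 and 10.16, 10.09, 9.77 and 10.00 on mutants 1 to 4. The groups overlapped and mutant 3 was the lowest array, and the change was -0.09 (95% interval -0.29 to 0.11, limma adjusted p = 0.737), or -0.01 without mutant 3. Mdm4, a relative of Mdm2 that blocks the transcriptional activity of p53, read 9.07, 8.94, 9.00 and 8.93 on controls and 8.89, 8.93, 8.68 and 8.90 on mutants. Mutant 2 overlapped the controls, and the change was -0.13 (interval -0.31 to 0.04, adjusted p = 0.527). Of the 4 probe sets of Mdm4, 2 were above 0 and 2 below, between -0.13 and 0.26.

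Among 10 p53 targets of growth arrest and stress, 1 fell, 0 rose and 9 did not pass, beside 1.31% of all genes called lower. Their median change was -0.07, beside -0.01 over all genes. The 1 that fell was Plk2, a polo-like kinase gene induced early after serum or stress and known to act in the centriole cycle. Plk2 read 11.64, 11.67, 11.57 and 11.38 on controls 1 to 4 and 10.95, 11.12, 10.78 and 10.72 on mutants 1 to 4. All mutants lay below all controls, and control 4 was the control nearest to the mutants. The change was -0.67 ± 0.106 (SE), 95% interval -0.91 to -0.43 (limma adjusted p = 0.0156). An exact permutation test, two-sided, gave p = 0.0286, which is the lowest value possible with 70 relabelings. Without mutant 3 it was -0.63 (adjusted p = 0.0229). The call was lost without control 1 (adjusted p = 0.0553), control 2 (0.069), control 3 (0.0681) or mutant 4 (0.0579). A second, much dimmer probe set of Plk2 (1443780_at) gave a change of 0.00 (-6.2e-04), and over the mean of both probe sets the change was -0.34 (adjusted p = 0.0658).

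Ccng1 and Phlda3 had no overlap between the groups either, at much smaller sizes. Ccng1, the gene of cyclin G1 and a direct p53 target, read 9.88, 9.80, 9.81 and 9.88 on controls 1 to 4 and 9.73, 9.75, 9.29 and 9.73 on mutants 1 to 4. Mutant 3 lay far below the other mutants, and the change of -0.21 (adjusted p = 0.440) was -0.10 without it. All 3 probe sets of Ccng1 were below 0, between -0.24 and -0.21, and 2 of them had no overlap. Phlda3, whose product restrains Akt signalling, read 8.72, 8.80, 8.90 and 8.68 on controls and 8.66, 8.65, 8.55 and 8.56 on mutants. Its change was -0.17, and mutant 1 and control 4 were separated by little (adjusted p = 0.364).

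The other 7 targets overlapped between the groups. Sesn1, a sestrin that acts against mTORC1, was at -0.20 (adjusted p = 0.461) and its relative Sesn2 at 0.00 (adjusted p = 0.986). The changes of the nuclease gene Aen (0.02), the zinc finger gene Zmat3 (0.00), the stress gene Gadd45a (-0.05), the autophagy and stress gene Trp53inp1 (-0.09) and the anti-proliferative gene Btg2 (-0.02) had adjusted p-values between 0.747 and 0.993. Without mutant 3, Aen was at 0.13, Zmat3 at 0.12, Trp53inp1 at -0.06, Sesn1 at -0.11 and Sesn2 at 0.00. Gadd45a (0.09) and Btg2 (0.08) turned above 0 without it. Btg2 had a wide spread in the controls, with 9.00 on control 1, 8.31 on control 2, 8.26 on control 3 and 8.61 on control 4, so that its interval ran from -0.40 to 0.37. For 9 of the 10 targets the 95% interval lay within 0.5 of 0 on the log2 scale, Plk2 being the exception. Over all genes 80.9% of the intervals did.

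The death receptors were dim on these arrays. Fas, the receptor of Fas ligand, read 4.41, 4.24, 4.34 and 4.22 on controls and 4.11, 4.36, 4.20 and 4.17 on mutants, below the lower quartile of every array. Its change was -0.09 (adjusted p = 0.679), and the groups overlapped. Eda2r, the receptor of ectodysplasin A2 and a p53 target, read 5.26, 5.31, 5.19 and 5.51 on controls and 5.67, 5.37, 5.34 and 5.73 on mutants. Mutants 1 and 4 lay above all controls and mutants 2 and 3 did not, and the change was 0.21 (interval -0.04 to 0.46, adjusted p = 0.480). Without mutant 3 it was 0.27 (adjusted p = 0.239). Tnfrsf10b, the mouse receptor of TRAIL, was at -0.04 (adjusted p = 0.897). At such low signal RMA pulls values together, so small changes of these 3 genes carry little information.

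BH3-only genes held both of the rises. Among 7 measured, 2 rose and 5 did not pass, beside 0.835% of all genes called higher. The median change was 0.15, beside -0.01 over all genes. Bmf, whose product is known to be held at the cytoskeleton and released when cells lose attachment, read 10.01, 9.76, 9.71 and 10.05 on controls 1 to 4 and 10.64, 10.56, 10.49 and 10.56 on mutants 1 to 4. The mutants lay close together, and the lowest of them was above the highest control. The mean went from 9.88 ± 0.169 to 10.56 ± 0.0622 (SD, n = 4 each), a change of 0.68 ± 0.092 (SE; interval 0.47 to 0.89; limma adjusted p = 0.00762; exact permutation p = 0.0286). Bmf passed without any 1 of the 8 arrays, and without mutant 3 the change was 0.70 (adjusted p = 0.0107). This probe set (1454880_s_at) is of a kind that can match more than 1 transcript; the next brightest (1422995_at) was at 0.26 with overlapping groups and the dimmest (1458325_x_at) at -0.02. Over the mean of the 3 probe sets the change was 0.31 and did not pass (adjusted p = 0.108).

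Bbc3, the gene of Puma, which binds all anti-apoptotic Bcl2 proteins and is a main effector of p53-dependent death, read 7.56, 7.60, 7.46 and 7.45 on controls 1 to 4. On mutants 1 to 4 it read 8.09, 7.91, 8.08 and 7.81. All mutants lay above all controls, and mutant 3 was among the higher ones. The mean went from 7.52 ± 0.0718 to 7.97 ± 0.135 (SD, n = 4 each), a change of 0.45 ± 0.0839 (SE; interval 0.27 to 0.64; limma adjusted p = 0.0272; exact permutation p = 0.0286). Without mutant 3 the change was 0.42 (adjusted p = 0.0304). The call was lost without control 1 (adjusted p = 0.0771), control 2 (0.0799), control 3 (0.12), control 4 (0.0531) or mutant 1 (0.0757). Bbc3 had 1 probe set, so no second one could be compared.

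Bcl2l11, the gene of Bim, which is known to kill cells deprived of growth factors and which TGF-beta can induce, read 10.44, 9.90, 9.82 and 10.26 on controls 1 to 4. On mutants 1 to 4 it read 10.83, 10.85, 10.46 and 10.52. The groups did not overlap, although control 1 came close to mutant 3. The change was 0.56 ± 0.154 (SE) and did not pass (limma adjusted p = 0.117; exact permutation p = 0.0286), nor without mutant 3 (0.63, adjusted p = 0.0819). All 5 of its probe sets were above 0, between 0.32 and 0.58, and 3 of them had no overlap. In the controls, Bmf and Bcl2l11 shared an order in part: controls 1 and 4 were higher than controls 2 and 3 for both. This was seen after the values were known and was not particular to them. Btg2 and the muscle marker Myf5 also had controls 1 and 4 above controls 2 and 3.

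None of the other BH3-only genes passed. Bad, whose product is switched by survival kinases, read 10.17, 10.23, 10.21 and 10.19 on controls and 10.14, 10.09, 10.04 and 10.11 on mutants. All mutants were lower, by 0.11 on average, and it did not pass (adjusted p = 0.516). Bid, which links death receptors to mitochondria, was at -0.31, and at -0.10 without mutant 3, which read 7.11 beside 7.93 to 7.99 on the other mutants (adjusted p = 0.520). Bik was higher, at 0.15 (adjusted p = 0.431), and at 0.18 without mutant 3 (interval 0.03 to 0.32, adjusted p = 0.191). Pmaip1, the p53 target Noxa, read 6.76, 7.47, 5.88 and 6.66 on mutants 1 to 4 and 6.69 to 7.08 on controls, so that the mutants lay on both sides of the controls (change -0.18, adjusted p = 0.830). Without mutant 3 its change was 0.09.

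**Figure D2:**
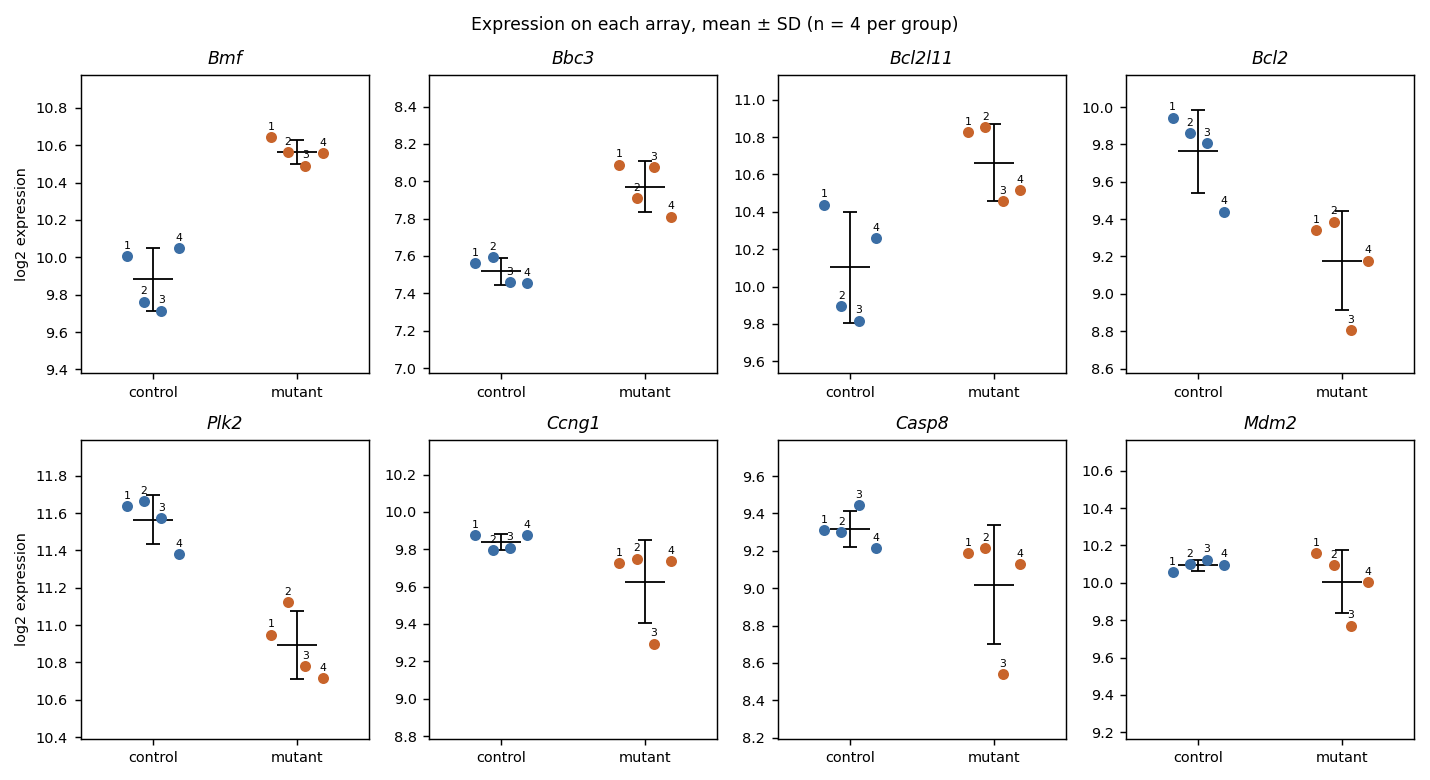
Log2 expression on each array (points, numbered by replicate) for 8 genes in controls (blue, left) and mutants (orange, right), with the mean and SD over 4 arrays; every panel spans the same height on the log2 scale. Bmf, Bbc3 and Bcl2l11 lie higher and Bcl2 and Plk2 lower on all mutants, Ccng1 and Casp8 are separated by little with mutant 3 far below, and Mdm2 overlaps.

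To show the sequence at the start sites of the BH3-only genes that were higher and of Plk2, the 250 bases before a RefSeq start of each gene (GRCm38.p6) are given 5′ to 3′ on the gene's strand, with capitals marking the motif matches. Where a gene had several windows in the table, the 1 with the most matches is shown. The motifs were chosen after the changes were known: the forkhead motif GTAAACA, the cyclic AMP response element TGACGTCA, the Smad palindrome GTCTAGAC and the p53 decamer, each on both strands and with no overlap between matches. Bmf is at chr2:118544588-118544837 (minus strand, 3 windows in the table), Bbc3 at chr7:16310011-16310260 (plus strand, 3 windows), Bcl2l11 at chr2:128125788-128126037 (plus strand, 2 windows) and Plk2 at chr13:110394794-110395043 (plus strand, 1 window).
Bmf: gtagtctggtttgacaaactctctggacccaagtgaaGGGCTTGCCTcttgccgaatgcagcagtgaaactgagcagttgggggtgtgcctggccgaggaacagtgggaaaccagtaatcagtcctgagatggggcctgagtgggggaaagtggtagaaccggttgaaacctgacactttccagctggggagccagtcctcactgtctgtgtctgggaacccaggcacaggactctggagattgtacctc
Bbc3: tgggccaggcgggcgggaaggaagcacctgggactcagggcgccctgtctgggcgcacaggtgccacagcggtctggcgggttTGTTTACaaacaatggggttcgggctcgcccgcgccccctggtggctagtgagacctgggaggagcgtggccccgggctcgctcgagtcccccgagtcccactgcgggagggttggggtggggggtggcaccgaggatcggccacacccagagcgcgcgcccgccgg
Bcl2l11: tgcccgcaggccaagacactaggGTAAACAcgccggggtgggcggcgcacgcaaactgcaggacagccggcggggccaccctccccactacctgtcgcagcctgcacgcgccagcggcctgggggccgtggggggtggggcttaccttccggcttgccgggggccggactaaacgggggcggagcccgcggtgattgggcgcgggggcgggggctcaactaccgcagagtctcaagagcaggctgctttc
Plk2: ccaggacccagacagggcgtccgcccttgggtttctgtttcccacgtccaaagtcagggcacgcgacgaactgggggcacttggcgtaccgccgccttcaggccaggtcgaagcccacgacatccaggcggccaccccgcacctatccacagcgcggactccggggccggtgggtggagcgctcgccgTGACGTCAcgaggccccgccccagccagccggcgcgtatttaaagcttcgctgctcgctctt

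The forkhead motif began 167 bases before the start in the Bbc3 window, read on the opposite strand, and 227 bases before it in the Bcl2l11 window. Over all 32851 windows of 300 bases in the table, 3.65% held it. The p53 decamer in the Bmf window began 213 bases before the start and was held by 8.36% of all windows, and the cyclic AMP response element in the Plk2 window began 62 bases before the start and was held by 1.79%. None of these 4 genes had the Smad palindrome in any window, as 0.213% of all windows did. Of the 34 measured genes, 29 were in the table; 6 held a p53 decamer (Mdm2, Ccng1, Sesn1, Aen, Gadd45a and Bmf) and 5 the forkhead motif (Mdm2, Sesn1, Eda2r, Bbc3 and Bcl2l11) in at least 1 window. These are 20.7% and 17.2% of the 29, beside 9.55% and 4.05% of all 27025 genes in the table. A gene with more windows has more chances to hold a match, and these shares were not matched for the number of windows. Likewise, the windows shown for genes with several were picked for their matches, whereas the shares per window were not. Of the genes with a p53 decamer, Bmf was the 1 that passed the test. A match describes letters in this window and is not evidence of binding.

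Bak1, the pore-forming protein measured here, did not pass. It read 7.71, 7.72, 7.81 and 7.73 on controls and 7.89, 7.84, 7.36 and 7.81 on mutants. Mutants 1 and 2 were above all controls and mutant 3 below them, and the change of -0.02 (adjusted p = 0.956) was 0.10 without mutant 3.

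No anti-apoptotic gene passed, and all 4 measured were below 0, with a median of -0.10. This shared direction depended on mutant 3. Without it Mcl1 was at 6.0e-04, Bcl2l2 at -0.02 and Bcl2l1 at -0.12. Bcl2 read 9.94, 9.86, 9.81 and 9.44 on controls 1 to 4 and 9.34, 9.39, 8.80 and 9.18 on mutants 1 to 4. All mutants lay below all controls, with control 4 close to mutant 2 and mutant 3 lowest. The mean went from 9.76 ± 0.222 to 9.18 ± 0.265 (SD, n = 4 each), a change of -0.58 ± 0.149 (SE; interval -0.92 to -0.25), which did not pass (limma adjusted p = 0.0905; exact permutation p = 0.0286). It passed without control 4 (-0.69, adjusted p = 0.0381), after a further quantile normalization (-0.51, adjusted p = 0.0492), with a robust fit of the variance trend (-0.58, adjusted p = 0.0468) and with array weights (-0.49, adjusted p = 0.0208), and without mutant 3 it was -0.46 (adjusted p = 0.0872). All 5 probe sets were below 0, between -0.58 and -0.08, but the brightest alone had no overlap. Bcl2l1, the gene of Bcl-xL, read 9.55, 9.49, 9.55 and 9.37 on controls and 9.34, 9.40, 9.48 and 9.35 on mutants. The groups overlapped (change -0.10, adjusted p = 0.645), and of its 4 probe sets 2 were above 0. Mcl1, a short-lived protein that many embryonic cells need for survival, was at -0.01 with an interval of -0.15 to 0.13 (adjusted p = 0.963). Its 6 probe sets lay between -0.10 and 0.05. Bcl2l2 was at -0.11 (adjusted p = 0.731).

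**Figure D3:**
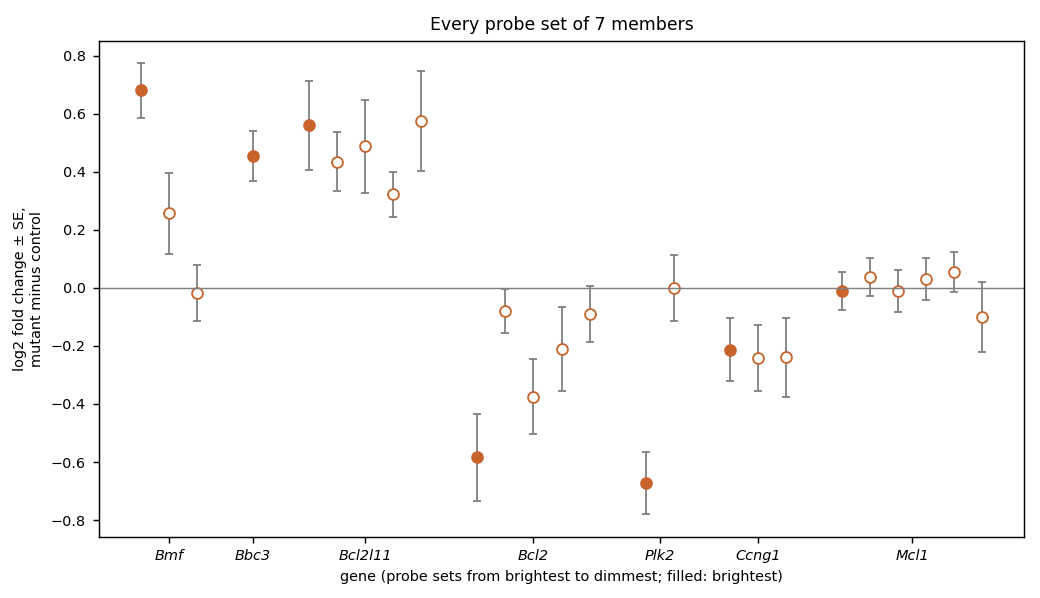
Log2 fold change with its SE (y axis) of every probe set of 7 genes, ordered from brightest to dimmest within a gene, with the brightest filled. All 5 Bcl2l11 probe sets lie above 0 and all 5 Bcl2 probe sets below it, whereas the dimmer probe sets of Bmf and Plk2 lie nearer to 0 than the brightest.

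Caspases and apoptosome genes did not pass in either direction (0 of 7 by limma, 1 of 7 at an unadjusted p under 0.05, beside 13.5% of all genes). Their median was -0.10, and mutant 3 was the lowest of the 8 arrays for all 7. Without mutant 3 their changes ran from -0.18 (Apaf1) to 0.25 (Casp9). Apaf1, which forms the apoptosome, read 10.14, 10.19, 10.04 and 10.19 on controls 1 to 4 and 9.86, 10.10, 9.58 and 9.93 on mutants 1 to 4. Mutant 2 overlapped the controls and mutant 3 was lowest. The change was -0.27 (interval -0.51 to -0.03, adjusted p = 0.303), or -0.18 without mutant 3. Casp8, the initiator caspase of the death receptors, read 9.31, 9.30, 9.45 and 9.21 on controls and 9.19, 9.21, 8.54 and 9.13 on mutants. The groups touched without overlapping, since control 4 and mutant 2 both read 9.21, and mutant 3 was far below. The change of -0.30 (adjusted p = 0.416) was -0.14 without mutant 3.

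Casp9, the caspase that the apoptosome activates, read 7.95, 8.05, 7.34 and 8.03 on mutants 1 to 4 and 7.72, 7.67, 7.70 and 7.94 on controls 1 to 4. Mutants 1, 2 and 4 lay above all controls and mutant 3 below them, so that the change was 0.08 with mutant 3 (adjusted p = 0.858) and 0.25 without it (adjusted p = 0.126). Diablo, which encodes an antagonist of the inhibitor of apoptosis proteins, was at 0.07, and at 0.13 without mutant 3 (adjusted p = 0.192). Xiap, the inhibitor it antagonises, was at -0.11, Casp6 at -0.10 and Casp2 at 0.01, with adjusted p-values between 0.609 and 0.967.

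**Figure D4:**
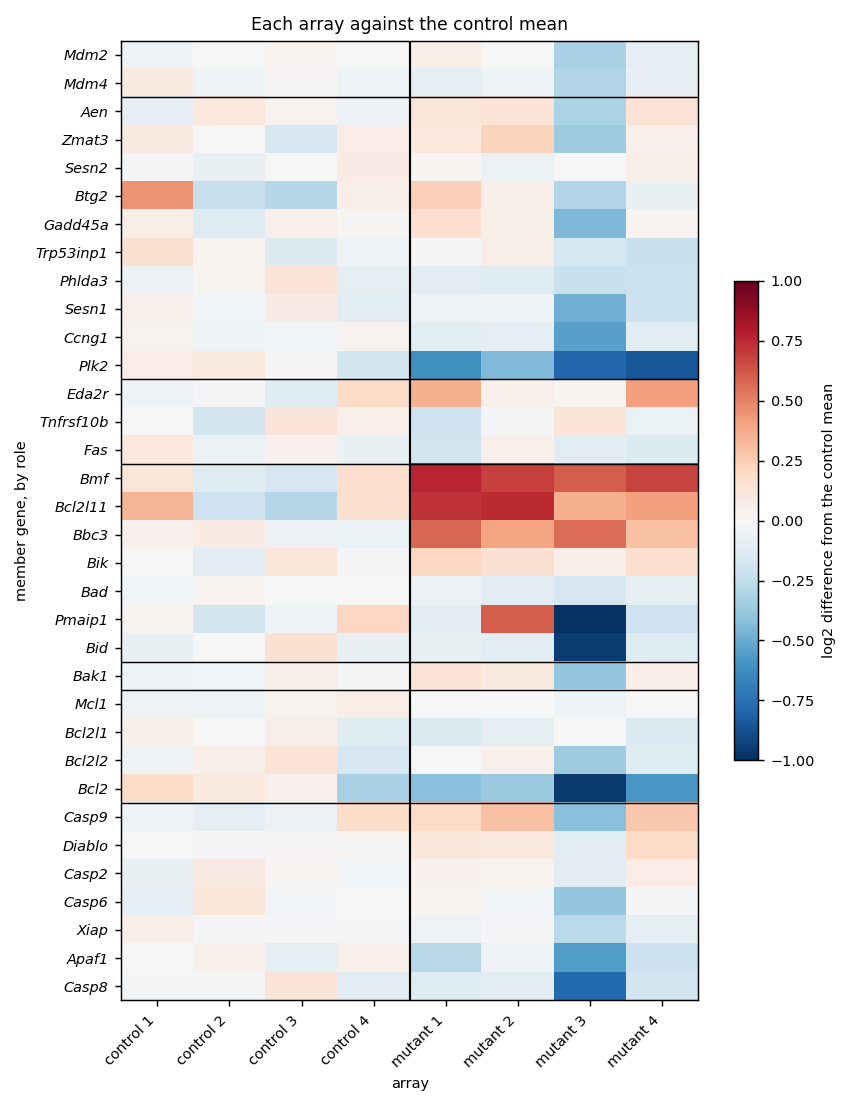
Log2 difference of each array from the control mean (colour, from -1 to 1) for the 34 measured genes in rows, grouped by role with lines between the groups, and the 8 arrays in columns. Bmf, Bcl2l11 and Bbc3 are red and Plk2 and Bcl2 blue on all 4 mutants, and mutant 3 is blue across most of the other genes.

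Groups did not overlap for 9 of the 34 genes, 3 higher and 6 lower in the mutants, beside 10.3% of all genes (3.27% higher and 7.02% lower). Without mutant 3, 13 of 34 had none, 7 higher and 6 lower, beside 16.8% of all genes. The share below 0 moved with mutant 3: 23 of 34 genes were below 0 with it and 18 of 34 without it, and the median went from -0.09 to -0.01. Over all 18194 genes, 9455 were below 0 with mutant 3 and 9380 without it, with medians of -0.0067 and -0.0041. The test called 3 genes without mutant 3 as well, again Bmf and Bbc3 higher and Plk2 lower, beside 3.4% of all genes called in either direction, 1.8% higher and 1.59% lower. It called 1, Bmf, without control 1, 2 or 3, and without control 4 it called Bmf, Plk2 and Bcl2.

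Further genes of both pathways, from lists that did not hold the 36, did not pass. Of 62 listed, 55 were measured, 0 were called by limma in either direction and 3 had an unadjusted p under 0.05, 1 higher and 2 lower, with a median of -0.03. Over all genes 2.14% were called and 13.5% had an unadjusted p under 0.05. Among 30 measured genes of the p53 circuit, Trp73, a relative of p53, was at -0.24 (adjusted p = 0.365) and the checkpoint gene Sfn at -0.27 (adjusted p = 0.416), the 2 with the smallest p. Cdkn1a, which encodes p21 and is the best known arrest target of p53, read 9.11, 8.30, 8.26 and 7.83 on controls 1 to 4 and 8.38, 8.44, 7.99 and 8.01 on mutants 1 to 4. All mutants lay within the range of the controls, and the change was -0.17, with an interval as wide as -0.71 to 0.36 (adjusted p = 0.808). Among 25 measured genes of apoptosis, the 2 with the smallest p were Birc3, an inhibitor of apoptosis (-0.32 ± 0.112 SE, adjusted p = 0.225), and Parp1, a DNA repair gene cut by caspases (0.21 ± 0.087 SE, adjusted p = 0.330). On Parp1, control 4 read 11.88 and lay among the mutants.

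Markers of other cells moved with the groups. Of 10 macrophage markers (Adgre1, C1qa, C1qb, C1qc, Csf1r, Aif1, Cd68, Mrc1, Tyrobp and Ptprc), 9 rose and Mrc1 did not pass. RMA values have no 0, and the lowest single value, 5.50, was that of Cd68 on a control, below the median of every array. Platelet markers went the other way: 2 of 4 fell (Pf4 and Ppbp), with a summed level of 2391 to 3502 in controls and 1598 to 2110 in mutants. Of 4 neuronal markers 1 fell (Tubb3) and 2, both lower, had an unadjusted p under 0.05, with a summed level of 638 to 1120 in controls and 466 to 537 in mutants. Of 8 mesenchymal markers 1 rose (Dlx2) and 7 did not pass, but 6 were below 0 and 4 of these were lower with no overlap: Msx1 (-0.58), Prrx1 (-0.34), Hand2 (-0.27) and Twist1 (-0.16). At an unadjusted p under 0.05 there were 6 of the 8, 2 higher and 4 lower, beside 13.5% of all genes. Their summed level was 25288 to 29897 in controls and 22174 to 23878 in mutants. The mean of their log2 values overlapped, at 10.91 to 11.08 in controls and 10.88 to 10.96 in mutants. Of the epithelial, endothelial, muscle and erythroid markers, 4 measured in each list, 0 passed, and at an unadjusted p under 0.05 there were 0, 0, 1 and 2. The part of these cells in the changes of Bmf, Bbc3, Bcl2l11, Bcl2 and Plk2 was not tested.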

How the data were processed

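The deposited values were log2 expression values per probe set from 8 Affymetrix arrays, which the authors made with RMA per the submitters' processing notes (version: not given in the sources used here). This method corrects background, equalizes arrays and summarizes probes. The table held 45101 probe sets, of which 34958 were annotated to 1 gene symbol, 932 to several and 9211 to none. The brightest probe set of each symbol gave 18194 genes. Probe-level values and detection calls were not used here.

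Mutants were compared with controls in limma 3.58.1 (R 4.3.3; lmFit and eBayes, no covariate), with Benjamini-Hochberg adjustment over the 18194 genes. Genes "rose" or "fell" at an adjusted p under 0.05. Adjusted p-values are from this fit unless a setting is named. Exact permutation tests were two-sided over 70 relabelings. The steps were tested on simulated arrays. Members, role groups, wider lists and marker lists were chosen with earlier results of these data known. Values on every array are given for each gene that passed, had no overlap between groups or had 1 of the 2 smallest p-values of its role; other genes given array by array (Btg2, Pmaip1, Casp9, Cdkn1a) were chosen after their values were seen. Alternatives were each array left out, a replicate block, other probe set choices, normalizations, filters, variance models, array weights and thresholds. Promoter windows came from a RefSeq table (GRCm38.p6) matched by symbol.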

Additional observations from a re-analysis of the deposited data

Results flagged for a closer look

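In a group of 4 arrays, the highest or lowest value was marked when its gap to the nearest other array, divided by the group's range, was above Dixon's 95% critical value for groups of that size. Over 38 genes (the 34 measured members and Trp73, Sfn, Birc3 and Parp1) and 76 groups, 11 were marked, where chance gives about 5%, and 8 of the 11 were the value of mutant 3 as the lowest of its group. These 8 were Ccng1 (9.29, next 9.73), Aen (9.14, next 9.57), Bid (7.11, next 7.93), Bak1 (7.36, next 7.81), Mcl1 (12.51, next 12.55), Casp6 (10.67, next 11.03), Casp8 (8.54, next 9.13) and Casp9 (7.34, next 7.95). Bmf, Bbc3, Bcl2l11, Bcl2 and Plk2 were not among them. The other 3 were high controls: Bak1 on control 3 (7.81, next 7.73), Xiap on control 1 (10.71, next 10.63) and Parp1 on control 4 (11.88, next 11.60).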

How the results depend on the processing

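The count over all 18194 genes, 390 in the fit as described, ranged from 104 to 618 when 1 array was left out, and was 620 after a further quantile normalization, 1356 with array weights, 82 at an adjusted p under 0.01 and 664 under 0.10. The count of members, 3, ranged from 1 to 3 when 1 array was left out, and was 1 when all probe sets of a gene were averaged (Bbc3), 4 after the further quantile normalization and with a mean-variance trend (in both, Bcl2 lower in addition), 4 at an adjusted p under 0.10, 5 with array weights (Bmf, Bbc3 and Bcl2l11 higher, Plk2 and Bcl2 lower) and 1 under 0.01 (Bmf). The count of the wider lists stayed at 0 under all 18 alternatives run on it. With the replicate number as a block it was 293 genes and 2 members, and Bbc3 lost its call (adjusted p = 0.0661); same-numbered arrays deviated together with r of -0.12 to 0.41 over 4 pairs, 2 of 8 arrays correlated best with their own number, and the numbers were not taken as a pairing. Bmf lost its call without probe sets of shared sequence (0.26, adjusted p = 0.493). Of 20 genes followed through the alternatives, 16 kept their direction throughout. Those that turned were small changes: Bak1, between -0.075 and 0.10 when 1 array was left out and above 0 without control 3 (0.0020) or mutant 3 (0.10), also after quantile normalization (0.0064) and with array weights (0.073); Mdm4 over the mean of its probe sets (0.038), with the probe set of largest interquartile range (0.26) and without shared-sequence probe sets (0.26); Bcl2l1 over the mean (0.022); and Trp73 with the probe set of largest interquartile range (0.19). The cause was not tested. The number of arrays and the dim signal of Fas, Tnfrsf10b and Eda2r limit what could be seen.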
